A study of Mus musculus with 18 samples.

Results

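The BCL2 family sets whether a cell keeps its mitochondria sealed or starts to die by the intrinsic route of apoptosis. Anti-apoptotic members (Bcl2, Bcl2l1 which encodes BCL-XL, Mcl1 and the A1 proteins) hold the effectors Bax and Bak1 in check. Once released, the effectors open pores in the outer mitochondrial membrane and let cytochrome c out, which switches on the caspases. BH3-only members (Bcl2l11 which encodes BIM, Bbc3 which encodes PUMA, Pmaip1 which encodes NOXA, and Bmf) sense stress and occupy the anti-apoptotic proteins. In B cells the balance between these groups is known to decide how long a resting cell lives and whether an activated cell survives.

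The 10 genes described here were picked by name: Bcl2, Bcl2l1, Mcl1, Bcl2a1b, Bax, Bak1, Bcl2l11, Bbc3, Pmaip1 and Bmf. Of these, 9 had a row among the 40327 genes of the 129 tables and the 39147 genes of the Cast tables, and Bcl2a1b is not analysed here. The data came from 6 of the 18 samples of the series, all RNA of CD23+ splenic B cells of female F1 mice with a 129S1 and a Cast genome. Every one of these mice was Xist+/-, and the labels state that their inactive X was always of Cast origin, so no group here has a normal pair of X chromosomes. Naive cells (3 samples, no treatment) were compared with cells kept in vitro for 24 h with 1 µM CpG (3 samples), a DNA ligand of the receptor TLR9 that activates B cells. The labels name no group kept in culture without CpG, so culture and CpG cannot be told apart. Reads that could be assigned to one genome were counted in separate 129 and Cast tables, so each member was measured on each of its alleles.

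The tables held 1987266 to 2928236 reads in genes per sample for 129 and 2465073 to 3321753 for Cast. The naive and the stimulated samples differed in the listed markers of B cells and of other cell types. All 8 B cell markers tested in the 129 tables and all 7 in the Cast tables fell after CpG, among them Fcer2a, which encodes the CD23 used to sort the cells. Macrophage markers, summed over 11 genes with a row, stood at 2000 to 4565 CPM (normalised counts, each gene's reads scaled to a common library size) in the naive 129 tables and at 4.89 to 6.47 in the stimulated ones. In the Cast tables the sums were 1856 to 4280 and 4.73 to 5.92, and all 10 tested markers fell in both tables. The highest sum was in naive replicate 1, and Cd68 was at 0 to 2.58 in every 129 library. Summed T cell, neutrophil, NK cell, erythroid and dendritic cell markers ranged from 3.97 to 110 in naive samples and from 0 to 6.38 in stimulated samples. The part of these other cells in the results below was not tested. In bulk RNA, fewer cells of a type and less RNA per cell cannot be told apart.

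The promoters of the members that moved on both alleles are shown first, because Bax and Bak1 rose together while Mcl1 fell. Each run covers 250 bases before and 50 after a RefSeq start site (GRCm38.p6, gene strand, 5′ to 3′), with E-box matches in capitals for Bax and the kappaB match in capitals for Mcl1. The windows are chr7:45466849-45467148 (minus strand) for Bax, chr17:27028578-27028877 (minus strand) for Bak1 and chr3:95658471-95658770 (plus strand) for Mcl1.
Bax: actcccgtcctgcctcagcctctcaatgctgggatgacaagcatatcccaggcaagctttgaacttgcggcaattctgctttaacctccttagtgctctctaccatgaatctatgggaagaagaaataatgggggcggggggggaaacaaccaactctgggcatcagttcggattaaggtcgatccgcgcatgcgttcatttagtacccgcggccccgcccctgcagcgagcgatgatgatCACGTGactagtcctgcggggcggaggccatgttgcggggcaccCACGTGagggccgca
Bak1: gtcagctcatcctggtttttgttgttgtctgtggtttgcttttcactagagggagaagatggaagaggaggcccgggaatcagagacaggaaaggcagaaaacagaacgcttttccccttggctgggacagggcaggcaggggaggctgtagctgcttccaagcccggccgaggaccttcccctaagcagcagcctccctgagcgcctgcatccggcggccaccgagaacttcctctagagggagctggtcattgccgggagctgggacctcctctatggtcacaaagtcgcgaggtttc
Mcl1: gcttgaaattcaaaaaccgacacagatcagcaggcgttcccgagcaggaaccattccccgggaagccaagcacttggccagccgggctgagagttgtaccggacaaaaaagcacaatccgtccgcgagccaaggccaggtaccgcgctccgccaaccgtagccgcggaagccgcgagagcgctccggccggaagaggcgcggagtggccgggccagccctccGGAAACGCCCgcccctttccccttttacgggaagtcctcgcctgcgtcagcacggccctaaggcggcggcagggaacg
Both strands were searched for the letters CACGTG (E-box, its own reverse complement), GGG, any 2 bases, then TTTCC (kappaB) and TGTTTAC (FOXO), none of which overlapped another in these windows. The Bax window held 2 E-box matches, at -9 and 35 bases from the start, where 7.15% of 32851 mouse promoters of the same length held at least 1. The Mcl1 window held 1 kappaB match on the other strand, 28 bases upstream, against 1.63% of promoters, and the Bak1 window held none of the motifs. Over 16 promoters of 9 listed members, Bcl2a1b among them, a FOXO match lay in 2 (of Bcl2l11 and Bbc3), against 3.65% of promoters. A kappaB match lay in 3 of the 16 (of Mcl1, Bcl2l1 and Bbc3), and an E-box in 2 (of Bax and Bbc3). Pmaip1 had no promoter in the table. A match is a run of letters in a window, not a measured binding site.

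Among the members, 8 of the 9 had enough reads to be tested (Bbc3 did not). After CpG, Bax and Bak1 rose about 3-fold and Mcl1 fell on both alleles, while Bcl2 kept overlapping groups and passed on neither allele. Pmaip1 rose and Bmf fell on the Cast allele. On the 129 allele 2 members rose and 1 fell (edgeR quasi-likelihood test, adjusted p under 0.05), where 55.2% of all 10581 tested genes passed, 28.2% higher and 27.0% lower. On the Cast allele 3 rose and 2 fell, where 62.2% of 10365 genes passed, 30.7% higher and 31.5% lower. So the share of members that passed was below the share of all genes on the 129 allele and near it on the Cast allele. With the replicate number as a block, Bcl2l1 and Bcl2l11 also passed on the 129 allele, which makes 5 of 8 members against 65.1% of all genes, about the same share. The groups of 4 members on the 129 allele and 5 on the Cast allele did not overlap, where this held for 64.8% and 68.5% of all tested genes. The median log2 fold change of the members was 0.45 in the 129 tables (-0.01 over all tested genes) and 0.53 in the Cast tables (-0.04 over all tested genes). The labels do not say whether replicates came from separate mice, so p-values measure only the spread between these samples.

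**Figure D1:**
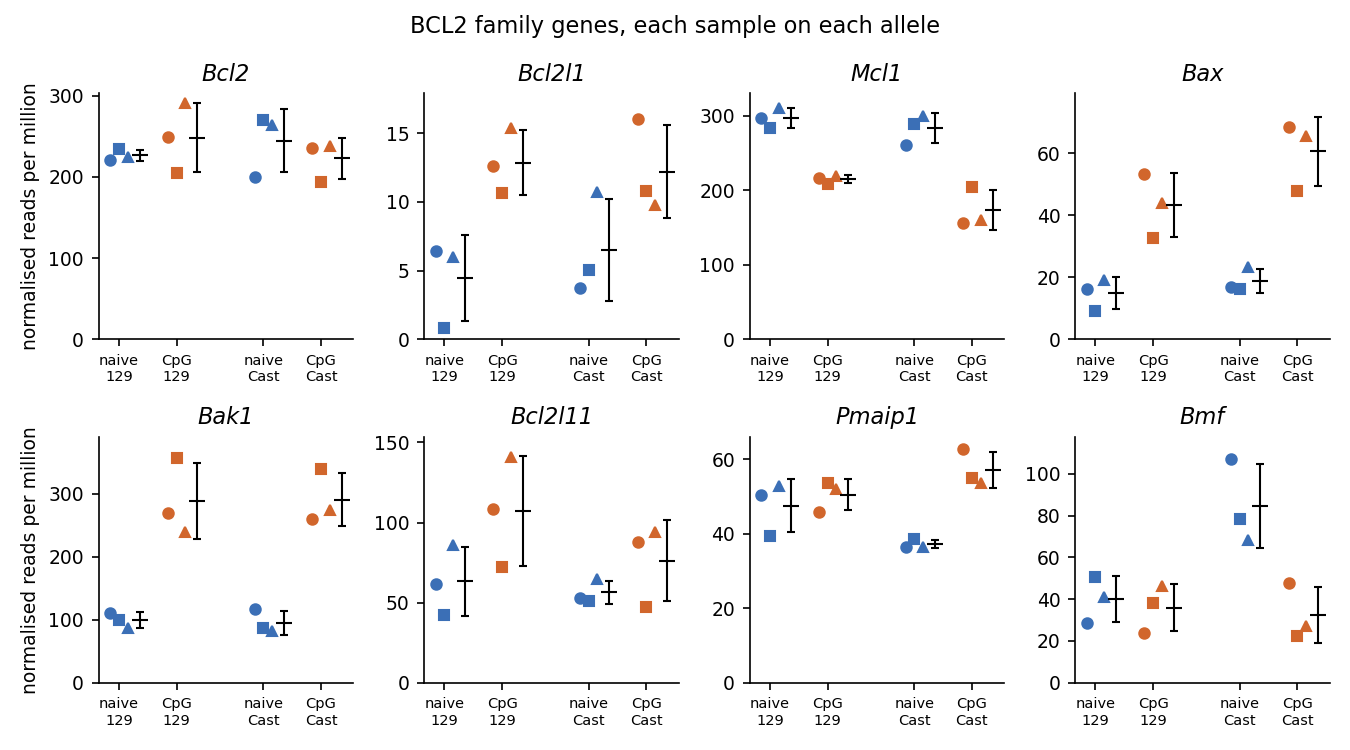
CPM, normalised counts scaled to library size (y axis, linear, from 0) of the 8 tested members in each of the 6 samples, on the 129 and the Cast allele. Circles, squares and triangles are replicates 1, 2 and 3, blue is naive and orange is CpG, and black marks are the mean with its SD (n = 3). Bax, Bak1 and Mcl1 show groups that do not overlap on either allele, as do Bcl2l1 on the 129 allele and Pmaip1 and Bmf on the Cast allele.

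Of the anti-apoptotic members, Mcl1, a short-lived protein needed for B cell survival, was the highest per length in naive cells and fell on both alleles. It lies on chromosome 3 (GRCm38, 95658788 to 95663176, plus strand). On the 129 allele it stood at 298, 284 and 310 CPM in naive replicates 1, 2 and 3, and at 217, 209 and 220 after CpG. Every stimulated sample lay below every naive sample. From means of 297 ± 13.1 and 215 ± 5.55 (SD, n = 3), the fitted log2 fold change came to -0.47 (SE 0.10; adjusted p = 0.00487 in edgeR). On the Cast allele the values were 261, 289 and 300 in naive samples and 156, 205 and 161 after CpG, again without overlap. There it was -0.71 (SE 0.14; adjusted p = 0.00175).

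Bcl2, the founding member and a guard of resting lymphocytes, kept overlapping groups on both alleles. Its 129 values were 221, 234 and 224 in naive samples and 248, 205 and 291 after CpG. Its Cast values were 200, 270 and 264 in naive samples and 236, 194 and 239 after CpG. The stimulated replicate 2 was the lowest stimulated sample on each allele. The log2 fold change was 0.13 on the 129 allele (SE 0.14, edgeR adjusted p = 0.457) and -0.14 on the Cast allele (SE 0.15, edgeR adjusted p = 0.46). With both alleles summed, it was 0.02 (SE 0.13, edgeR adjusted p = 0.884).

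Bcl2l1, the BCL-XL gene, was among the members with the fewest reads. Its reads on the 129 allele were 15, 2 and 12 in naive samples and 35, 30 and 44 after CpG, and on the Cast allele 10, 14 and 25 and then 51, 35 and 33. Normalised for depth, the groups did not overlap on the 129 allele (0.831 to 6.45 CPM in naive samples, 10.6 to 15.4 after CpG), while on the Cast allele naive replicate 3 reached 10.7 and stimulated replicate 3 stood at 9.77. Fitted log2 fold changes were 1.54 (SE 0.58, edgeR adjusted p = 0.056) for 129 and 0.92 (SE 0.42, edgeR adjusted p = 0.0815) for Cast, so neither passed. It passed for 129 with the replicate block (log2 fold change 1.64, adjusted p = 0.00596) and without naive replicate 2 (1.04, adjusted p = 0.0483), for Cast without naive replicate 3 (1.47, adjusted p = 0.0143), and with both alleles summed (1.22, adjusted p = 0.0110). With the block 66.3% of all genes passed on the Cast allele, and with the alleles summed 68.7% of 10343 genes did.

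The 2 effectors rose on both alleles. Bak1, whose protein sits in the outer mitochondrial membrane, lies on chromosome 17 (27019810 to 27029009, minus strand). On the 129 allele it went from 111, 99.7 and 87.2 CPM in naive samples to 269, 356 and 239 after CpG. Its Cast values were 117, 87.3 and 81.6 and then 259, 339 and 274. Every stimulated sample lay above every naive sample on each allele. Bak1 thus rose by 1.53 (SE 0.18, edgeR adjusted p = 0.000294) and 1.61 (SE 0.17, edgeR adjusted p = 3.92e-05) on the log2 scale.

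Bax, whose protein moves from the cytosol to the mitochondria on activation, lies on chromosome 7 (45461697 to 45466898, minus strand). Its 129 values were 16.3, 9.14 and 19.1 in naive samples and 53.2, 32.6 and 44.0 after CpG, and its Cast values 17.0, 16.2 and 23.2 and then 68.4, 47.8 and 65.7. Stimulated replicate 2 was the lowest stimulated sample for Bax on each allele, and the highest for Bak1. The log2 fold change of Bax was 1.55 (SE 0.32, edgeR adjusted p = 0.00468) on the 129 allele and 1.69 (SE 0.21, edgeR adjusted p = 0.000115) on the Cast allele.

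**Figure D2:**
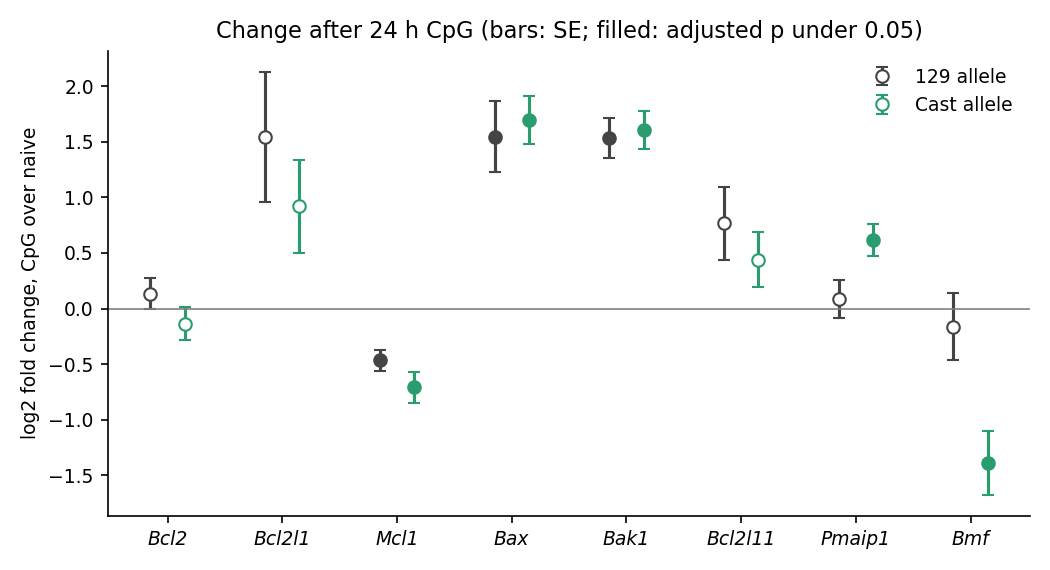
Log2 fold change of CpG over naive (y axis) for each tested member on the 129 allele (dark grey) and the Cast allele (green), with the SE as bars and filled points where the edgeR adjusted p was under 0.05. Bax and Bak1 sit between 1.53 and 1.69 on both alleles, Mcl1 at -0.47 and -0.71, and the points of Bmf lie apart at -0.16 and -1.39.

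The BH3-only members did not move as one. Bmf, a sensor of detachment and cytoskeletal stress that is known to curb B cell numbers, lies on chromosome 2 (118528757 to 118549687, minus strand). On the Cast allele it stood at 107, 78.3 and 68.3 CPM in naive samples and at 47.6, 22.5 and 26.9 after CpG, with no overlap. Its mean fell from 84.5 ± 20.1 to 32.3 ± 13.4 (SD, n = 3), or by 1.39 on the log2 scale (SE 0.28, edgeR adjusted p = 0.00226). The values of the 129 allele overlapped, at 28.8, 50.7 and 41.1 in naive samples and 23.7, 37.9 and 46.1 after CpG. The log2 fold change was -0.16 there (SE 0.30, edgeR adjusted p = 0.675), and it was 0.04 without naive replicate 2 and 0.07 without stimulated replicate 1. With both alleles summed, Bmf fell by 0.88 on the log2 scale (SE 0.14, edgeR adjusted p = 0.000343), where 68.7% of all genes passed.

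Pmaip1, a BH3-only gene whose protein pairs with MCL1, rose on the Cast allele and did not pass on the 129 allele. The Cast values were 36.5, 38.6 and 36.5 in naive samples and 62.7, 54.9 and 53.6 after CpG. The log2 fold change was 0.62 (SE 0.15, edgeR adjusted p = 0.00492). The 129 values were 50.3, 39.5 and 52.6 and then 45.7, 53.5 and 52.0, which overlap, and the difference was 0.09 on the log2 scale (SE 0.17, edgeR adjusted p = 0.689). Without naive replicate 2 that 129 value was -0.03. With both alleles summed, Pmaip1 rose by 0.40 on the log2 scale (SE 0.11, edgeR adjusted p = 0.00951), where 68.7% of all genes passed.

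Bcl2l11, the BIM gene and a main killer of lymphocytes, varied from sample to sample. On the 129 allele it stood at 61.5, 42.4 and 85.7 in naive samples and at 109, 72.3 and 141 after CpG. Replicate 3 was the highest and replicate 2 the lowest in both groups. The Cast values were 53.1, 51.2 and 64.9 and then 87.6, 47.5 and 93.8, where stimulated replicate 2 lay below the naive samples. The log2 fold change was 0.76 (SE 0.33, edgeR adjusted p = 0.0856) on the 129 allele and 0.44 (SE 0.25, edgeR adjusted p = 0.148) on the Cast allele. With the replicate block the 129 value passed (0.77, adjusted p = 0.000156), and the Cast value did not (0.39, adjusted p = 0.0534). Without stimulated replicate 2 both passed (0.98, adjusted p = 0.0413, and 0.71, adjusted p = 0.00452), and without naive replicate 3 the 129 value passed (1.05, adjusted p = 0.0394).

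Bbc3, the PUMA gene and a p53 target, had 0 or 1 read per sample on the 129 allele and 0 to 8 on the Cast allele, so no change was detectable at this depth. Its Cast reads were 1, 3 and 4 in naive samples and 0, 8 and 3 after CpG.

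The balance of the family was described as the reads of the anti-apoptotic members (Bcl2, Bcl2l1, Mcl1) over those of the pro-apoptotic members (Bax, Bak1, Bcl2l11, Bbc3, Pmaip1, Bmf). No test was run, since it is a score over chosen genes and leaves out A1 and other family genes such as Bid. In naive samples Bid, a BH3-only gene, stood at 170 (129) and 228 CPM (Cast), against 99.5 and 95.2 for Bak1. The shares below thus hold only for the genes counted. Over both alleles the anti-apoptotic share of these reads was 62.0%, 67.8% and 66.6% in naive replicates 1, 2 and 3 and 46.2%, 43.9% and 47.2% after CpG. The 2 groups did not overlap, with means of 65.5% ± 3.04 and 45.8% ± 1.66 (SD, n = 3). The log2 ratio went from 0.92 ± 0.19 to -0.25 ± 0.10, a difference of -1.17. It went from 1.00 ± 0.10 to -0.15 ± 0.21 on the 129 allele and from 0.87 ± 0.32 to -0.34 ± 0.02 on the Cast allele. Longer genes and genes with more strain differences give more reads, so the sign of this ratio is no measure of protein dominance. With reads divided by the length of the merged exons, the anti-apoptotic share was 56.4% ± 3.22 and 30.7% ± 1.32. In reads as counted, without Mcl1, the naive log2 ratio was -0.22 and the difference -0.87. Bak1 gave 569, 482 and 364 of the 1503, 1337 and 1213 pro-apoptotic reads in naive replicates 1, 2 and 3. After CpG it gave 1570, 2103 and 1612 of 3059, 3225 and 3236, so the change of the balance leans on this gene. A balance without Bak1 was not run.

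**Figure D3:**
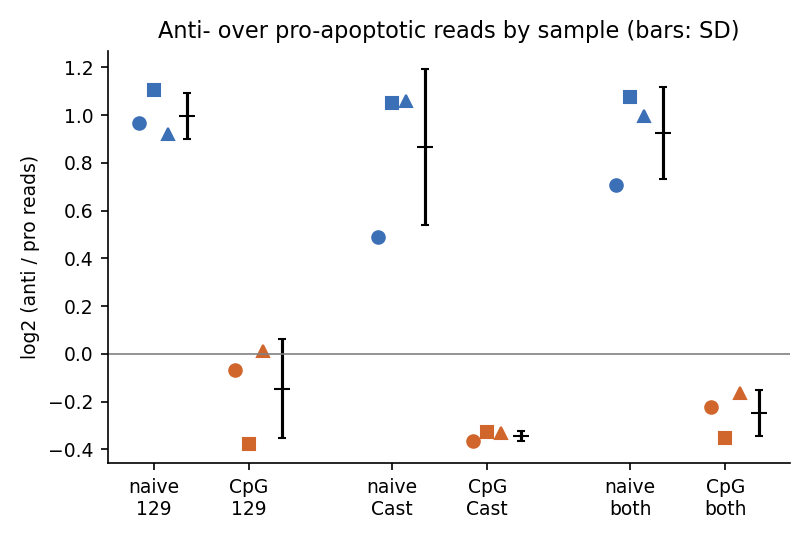
Log2 ratio of the summed anti-apoptotic to the summed pro-apoptotic reads (y axis) per sample, on the 129 allele, the Cast allele and both, with blue for naive, orange for CpG, shapes for replicates 1 (circle), 2 (square) and 3 (triangle) and black marks for the mean with its SD (n = 3). The lowest naive point is at 0.49 and the highest CpG point at 0.01.

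Single pairs moved by different amounts. The log2 ratio of Mcl1 over Bak1, a direct pair of guard and effector, was 1.28, 1.62 and 1.86 in naive samples and -0.52, -0.75 and -0.46 after CpG. The groups did not overlap, and the mean difference was -2.16. Mcl1 over Bax moved by -2.23 and Mcl1 over Bcl2l11 by -1.16. Bcl2 over Bak1 moved by -1.59 and Bcl2 over Bax by -1.66.

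The ratios of single pairs use reads as counted, so only their change between groups is free of gene length. The change of the summed balance still depends on length. Over both alleles its log2 ratio went from 0.92 to -0.25 in reads, and from 0.37 to -1.17 per kb of merged exon. Levels of single genes were ordered per kb of merged exon, and the number of sites that tell the strains apart still enters them. In naive cells on the 129 allele the order of CPM per kb began with Mcl1 (87.0 ± 3.83, SD, n = 3), Bak1 (41.3 ± 5.03), Bcl2 (24.7 ± 0.749) and Pmaip1 (17.4 ± 2.58), each apart from the next by more than their SDs. Bax (9.42 ± 3.25), Bcl2l11 (7.87 ± 2.71) and Bmf (7.65 ± 2.09) followed within their spread, and Bcl2l1 (0.967 ± 0.682) and Bbc3 (0.0675 ± 0.117) came last. After CpG on the 129 allele, Bak1 (120 ± 25.2) stood above Mcl1 (63.0 ± 1.62), and Bax (27.5 ± 6.55) and Bcl2 (27.1 ± 4.67) were level within their spread. On the Cast allele the first 3 in naive cells were the same genes in the same order (83.0 ± 5.79, 39.6 ± 7.85 and 26.7 ± 4.27). There Bmf (16.1 ± 3.83) and Pmaip1 (13.6 ± 0.438) came next in naive cells, within their spread. After CpG, Bak1 (121 ± 17.6) and Mcl1 (50.8 ± 7.91) were followed by Bax (38.5 ± 7.10), which on this allele stood above Bcl2 (24.3 ± 2.75) in every sample, and Bcl2l11 (9.50 ± 3.13) and Bmf (6.16 ± 2.55) lay within their spread.

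The 2 alleles were then compared within samples, as the Cast share of a gene's reads and as the log2 Cast-to-129 ratio in a model with a term for each sample. Over all matched autosomal genes the Cast share was 52.7% ± 0.793 in naive samples and 52.9% ± 0.812 after CpG (SD, n = 3). Bmf stood apart from this level in naive cells. Naive replicate 1 gave a Cast share of 80.9% (76.5 to 84.7, 95% Wilson interval), naive replicate 2 one of 64.0% (58.8 to 68.9) and naive replicate 3 one of 66.0% (59.8 to 71.7). The stimulated samples gave 69.6% (63.2 to 75.3), 40.6% (33.7 to 47.9) and 40.8% (34.6 to 47.4). The intervals include sampling of reads alone, because PCR copies without molecular identifiers may repeat a molecule. Replicate 1 was the highest in both groups, and the share changed by -11.3, -23.5 and -25.2 points within the same replicate number. In the model the log2 ratio of Bmf changed by -1.26 (SE 0.60, edgeR adjusted p = 0.519). With the replicate block, which takes out the difference between numbers, it changed by -1.26 (edgeR adjusted p = 1.65e-05). That fit has nearly as many terms as counts per gene, so its p-value leans on the spread of other genes. The pairing by number was itself read from these data.

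**Figure D4:**
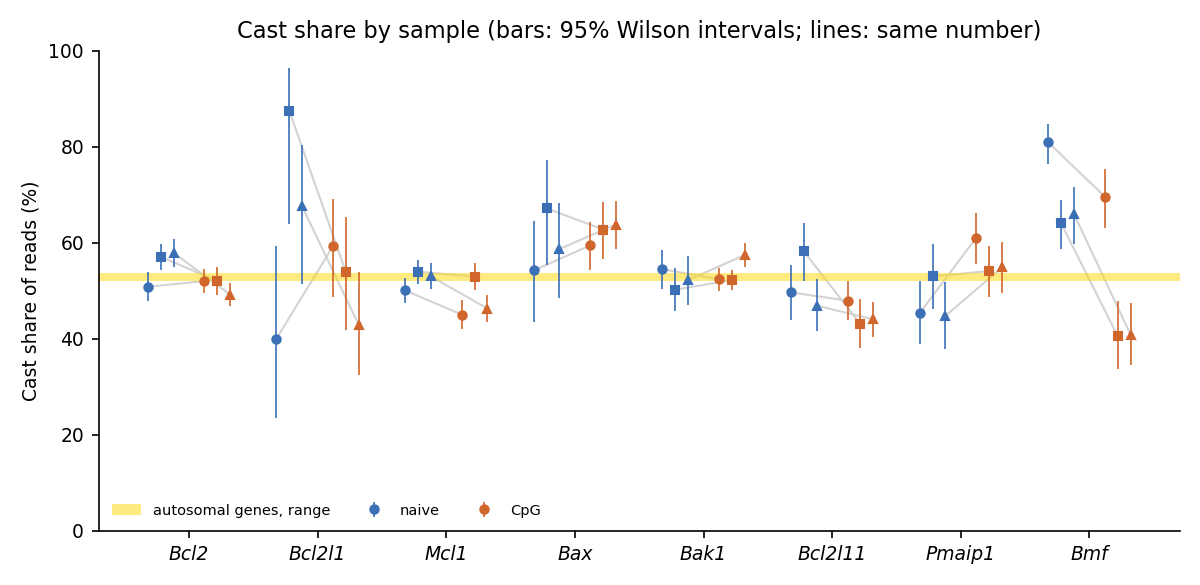
Cast share of the reads of each tested member (y axis, percent, 0 to 100) in each sample, with 95% Wilson intervals, grey lines joining samples of the same replicate number, blue for naive and orange for CpG, and the yellow band for the range over all autosomal genes. The 3 naive points of Bmf lie between 64.0% and 80.9%, and its lines all go down, as do those of Mcl1 and Bcl2l11.

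The change of the Cast-to-129 ratio passed for 0 of 8 members without the block, where 0.945% of 10051 genes passed (95 genes, and 14 to 26 with any 1 library left out), and 1 member (Pmaip1) had an unadjusted p under 0.05. With the block it passed for Bmf alone among the members, against 7.69% of genes. Pmaip1 went from 45.3%, 53.0% and 44.7% Cast to 61.0%, 54.1% and 54.8% after CpG, so the groups did not overlap. Its log2 change was 0.52 (SE 0.21, edgeR adjusted p = 0.412). That Pmaip1 passed in the Cast tables and not in the 129 tables is thus not shown to be a difference between alleles. For Mcl1, Bax and Bak1, which moved the same way on both alleles, the log2 changes of the ratio were -0.25 (SE 0.14), 0.13 (SE 0.26) and 0.10 (SE 0.13). For Bcl2, Bcl2l1 and Bcl2l11 they were -0.24 (SE 0.13), -0.71 (SE 0.73) and -0.38 (SE 0.20). The value of Bcl2l1 rests on few reads, and was -1.49 without naive replicate 1 and -0.17 without naive replicate 2.

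In naive cells themselves, unequal alleles passed for 0 of 8 members without the block, where 27.5% of genes passed, and 3 members had an unadjusted p under 0.05. These were Bcl2 with a log2 Cast-to-129 ratio of 0.31 (SE 0.10, edgeR adjusted p = 0.0511), Bax with 0.58 (SE 0.19, edgeR adjusted p = 0.0612) and Bmf with 1.28 (SE 0.42, edgeR adjusted p = 0.0736). With the block all 3 passed (adjusted p = 0.000877 for Bcl2, 0.0310 for Bax and 4.76e-12 for Bmf), where 45.8% of genes did. Bcl2 also passed without naive replicate 1 (0.44, adjusted p = 0.0178), and Bmf without stimulated replicate 1 (1.28, adjusted p = 0.015). Over 9 alternatives the naive ratio of Bcl2 ran from 0.17 to 0.44, with an edgeR adjusted p of up to 0.233. For Bax and Bmf the edgeR adjusted p reached 0.240 and 0.248. These ratios were tested against 0, although the autosomal Cast share in naive samples was 52.7%. The fit with the block has nearly as many terms as counts per gene, so its p-values lean on other genes. The strains' tables use separate gene models, and mapping can favour a strain, so part of a naive ratio can come from counting, which was not tested.

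Around the family, the other genes of the pathway were counted by list and on each allele, to be read against the 55.2% (129) and 62.2% (Cast) of all tested genes that passed. Of the other BCL2 family genes, 3 rose and 1 fell among 8 tested in the 129 tables, and 2 rose and 1 fell among 5 in the Cast tables, with median log2 fold changes of 0.37 and 0.53. These counts are small, and their shares lie near those over all genes. Bid, the BH3-only link from death receptors to mitochondria, rose from 170 ± 21.8 to 240 ± 19.7 CPM on the 129 allele (log2 fold change 0.50, SE 0.13, edgeR adjusted p = 0.0144) and by 0.53 on the Cast allele. Bnip3l, known for the removal of mitochondria, fell by 0.85 and 1.16 on the log2 scale (edgeR adjusted p = 0.000912 and 0.00084).

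Of the apoptosome genes, caspases and their inhibitors, 5 rose and 4 fell among 16 tested in the 129 tables and 5 rose and 4 fell among 14 in the Cast tables, with medians of 0.15 and 0.06. Here too the share called was about that of all genes (55.2% and 62.2%). Htra2, a mitochondrial protease that antagonises inhibitors of apoptosis, rose by 1.14 (SE 0.13) and 1.13 (SE 0.14) on the log2 scale. The inhibitor-of-apoptosis genes moved in opposite directions. Birc5, which encodes survivin and also serves cell division, rose from 6.25 ± 4.86 to 249 ± 69.1 on the 129 allele (log2 fold change 5.27, SE 0.56) and by 5.25 on the Cast allele. Birc3 fell by 1.85 and 2.14 and Birc2 by 1.55 and 1.62, both genes of ubiquitin ligases in TNF receptor signalling. Xiap, on the X chromosome, stood at 156 ± 15.2 and 155 ± 9.59 on the 129 allele and at 9.22 ± 1.61 and 9.05 ± 1.92 on the Cast allele, whose X is the inactive one.

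Of the death receptor genes, 2 rose and 3 fell among 9 tested in the 129 tables and 2 rose and 2 fell among 9 in the Cast tables, with medians of 0.19 and 0.17, against 55.2% and 62.2% of all genes called. Casp8, the initiator caspase of this arm, rose by 0.71 (SE 0.15, edgeR adjusted p = 0.00469) and 0.89 (SE 0.15, edgeR adjusted p = 0.000589). Traf2, an adaptor of TNF receptors, fell by 0.65 and 1.00. Tnfrsf1a, the TNF receptor, stood at 25.6 ± 8.73 and 22.7 ± 5.76 on the 2 alleles in naive samples and at 0.116 ± 0.202 and 0.0986 ± 0.171 after CpG (SD, n = 3). Macrophages also express that receptor, and their markers moved the same way; their part was not tested.

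Of the regulators, 6 rose and 4 fell among 14 tested in the 129 tables and 6 rose and 5 fell among 14 in the Cast tables, with medians of 0.10 and 0.59, against 55.2% and 62.2% of all genes called. Foxo3, a transcription factor known to drive Bcl2l11, fell by 1.44 (SE 0.12) and 1.54 (SE 0.13) on the log2 scale. Rel, the NF-kappaB subunit c-Rel, fell by 1.38 and 1.16. Vdac1, the main channel of the outer mitochondrial membrane, rose by 1.78 (SE 0.15) and 2.13 (SE 0.14). Dynll1 and Dynll2 encode the dynein light chains that tether BIM and BMF proteins to the cytoskeleton. They rose by 1.60 and 1.76 on the 129 allele and by 0.89 and 1.80 on the Cast allele. For Dynll1 the difference between the alleles did not pass (log2 change of the ratio -0.68, SE 0.22, edgeR adjusted p = 0.264). Dynll2 was low on the 129 allele (SE 0.56) and its groups overlapped there. Its stimulated replicate 3 (8.03 CPM) lay below naive replicate 1 (9.04).

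**Figure D5:**
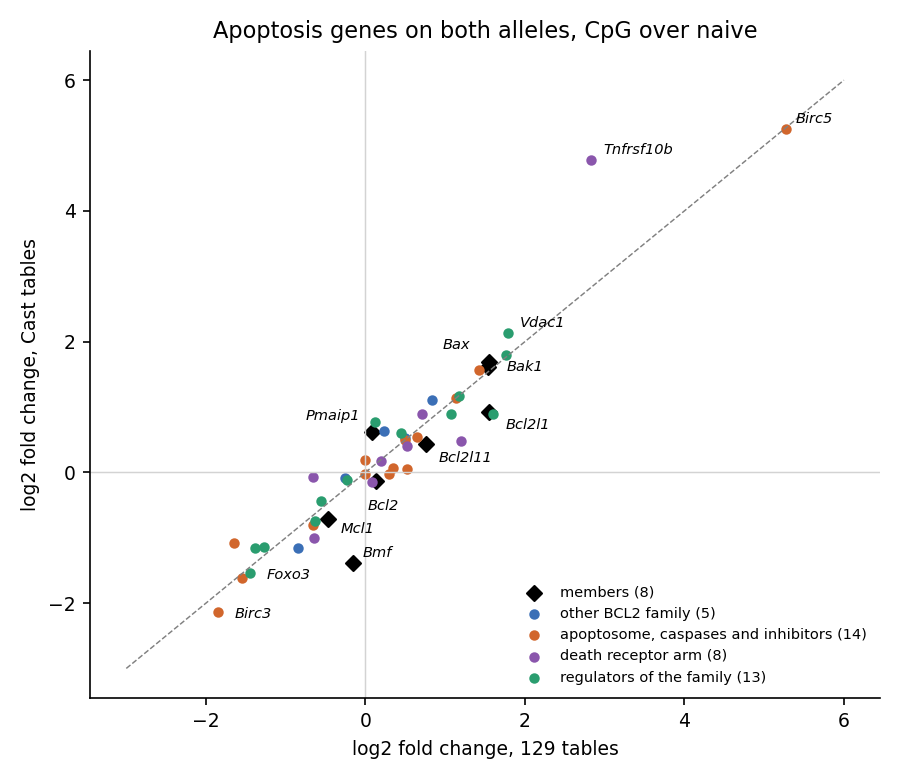
Log2 fold change of CpG over naive in the 129 tables (x axis) against the Cast tables (y axis) for the 8 members and for the listed pathway genes tested in both, without Tnfrsf1a, whose stimulated libraries were near 0. The dashed line marks equal values on both alleles. Bax and Bak1 lie on it at about 1.5 to 1.7, and Bmf lies below it at -0.16 and -1.39. Tnfrsf10b, labelled after its values were seen, lies above it.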

How the data were processed

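RNA of 6 samples (3 naive, 3 CpG for 24 h), prepared with a stranded total RNA kit per the labels' protocols, was used as 12 count tables, one per sample and strain. The deposited values are whole-number read counts per gene; the submitters' processing notes name STAR, featureCounts, Subread 2.0.0 and the mm10 build, with no role given. Rows that name no gene stayed out of library sizes and tests; reads in no gene were 48.1% to 67.1% of the 129 tables and 44.5% to 62.1% of the Cast tables, higher in every naive sample than in any stimulated one of the same strain.

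Counts were tested in R 4.3.3 with edgeR 4.0.16 (TMM factors, filterByExpr, robust quasi-likelihood test, Benjamini-Hochberg adjustment over all tested genes, threshold 0.05). CPM values use the TMM-scaled library sizes. The allele model used 28374 genes matched by name and chromosome, 1 library size for both alleles of a sample, and terms for sample, allele and allele by treatment. The SE was the absolute log2 change over the root of the F statistic. DESeq2 1.42.0, other filters, a minimum fold, library totals, summed alleles and leaving out each replicate were tried as alternatives. Tested on simulated data, the 129 comparison (10646 genes) recovered 83% of changes of 1 and 100% of changes of 2 on the log2 scale. The allele test (9981 genes) recovered 93% and 98%. False calls numbered 7 and 8. Changes were placed only in well-counted genes, with a fixed spread between samples and no replicate effect. Reads were split between alleles with sampling noise alone. Recovery for genes with few reads, such as Bcl2l1, or with noisier allele ratios was thus not measured.

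The labels give both groups the replicate numbers 1 to 3. Deviations of same-numbered samples correlated at 0.443 to 0.608 in the 129 tables and 0.163 to 0.246 in the Cast tables, so the numbers were taken to pair the samples; that pairing comes from the data, not from a stated shared animal, and the fit with the replicate block is given where it changes a call. Members and lists were chosen with earlier results of these data known. All members are named; of other lists, at most 5 genes with the largest change on the 129 allele among those called on both alleles, with 1 of these not reported here, and B cell or macrophage markers, Xiap and Tnfrsf10b by name afterwards. Exon lengths came from GENCODE M21 (GRCm38). Samples without count tables were not used here.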

Additional observations from a re-analysis of the deposited data

Results flagged for a closer look

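The change of the Cast-to-129 ratio of Bmf stood out because the response to CpG differed between its 2 alleles in the fit with the replicate block. The log2 change of the ratio was -1.26 (SE 0.60) without the block, where the edgeR adjusted p was 0.519. It was -1.26 with the block, where the edgeR adjusted p was 1.65e-05. The fit with the block has nearly as many terms as counts per gene, so its p-value leans on the spread of other genes. The Cast share was lower after CpG in 3 of 3 pairs of samples with the same number, a pairing read from these same data. That was also so for Mcl1 and Bcl2l11, while the share of Pmaip1 was higher in 3 of 3 pairs. With any 1 library left out and no block, the change ranged from -1.82 to -0.87.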

How the results depend on the processing

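The calls of Bak1 held under all 14 alternatives on each allele, and those of Bax on the Cast allele. With a minimum log2 fold change of 1, Mcl1 (both alleles), Bax (129), Pmaip1 (Cast) and Bmf (Cast) no longer passed, and 2525 and 2827 genes passed in the 129 and Cast tables. In the allele fits, the replicate block by allele raised the counts to 773 genes with a changed ratio and 4608 with unequal naive alleles. Among the CpG comparisons the block changed the calls of Bcl2l1 and Bcl2l11 on the 129 allele, and among the ratios those of Bmf, and of Bcl2 and Bax in naive cells; it changed no other member's call. Without a filter on low counts, Bcl2l1 passed on both alleles (adjusted p = 0.0353 and 0.0330) and Bcl2l11 on the Cast allele (0.0490), while the median of all genes shifted to -0.17 and -0.16; DESeq2 also called Bcl2l1 on the 129 allele (0.0433). Leaving out 1 library gave 14 to 26 genes with a changed ratio.

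Directions that turned belonged to values that had not passed. Leave-one-out values ran from -0.028 to 0.17 for Pmaip1 and from -0.38 to 0.072 for Bmf on the 129 allele, where Bmf was 0.04 without naive replicate 2. They ran from -0.046 to 0.33 for the ratio change of Bax, from -0.0013 to 0.16 for that of Bak1 and from -0.10 to 0.23 for the naive ratio of Bcl2l11. With both alleles summed, Bcl2 was at 0.023. With each table's own library size, the naive ratio was -0.0017 for Bak1 and -0.047 for Bcl2l11. Per kb of exon, chosen after seeing the data as were summed alleles and library totals, the naive log2 balance was 0.37 and its change -1.55. In reads as counted, without Mcl1, the naive log2 balance was -0.22 and its change -0.87. The cause of these shifts was not tested. Every balance is without Bcl2a1b, which is not analysed here, so leaving it out could not change a value and was not run. Depth limits Bbc3 and Bcl2l1.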

Other observations

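Tnfrsf10b, the mouse TRAIL receptor gene, was picked out after its values were seen. On the Cast allele it went from 2.26, 0.361 and 0.859 CPM in naive samples to 39.4, 17.9 and 41.4 after CpG, a fitted rise of 4.78 on the log2 scale (SE 0.55, edgeR adjusted p = 6.87e-05). On the 129 allele it went from 3.87, 0.416 and 5.52 to 33.4, 1.77 and 33.5, so stimulated replicate 2 overlapped the naive samples (log2 fold change 2.83, SE 1.17, edgeR adjusted p = 0.0855). The difference between the alleles did not pass (log2 change of the ratio 2.33, SE 1.10, edgeR adjusted p = 0.51).

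Bnip3, a gene known to be induced by low oxygen, stood at 15.8, 41.8 and 14.3 CPM in stimulated replicates 1, 2 and 3 on the 129 allele and at 6.62, 34.5 and 11.2 on the Cast allele. Stimulated replicate 2 was thus the highest stimulated sample for Bnip3 and Bak1 and the lowest for Bcl2, Bax and Bcl2l11, on both alleles. These genes were picked after their values were seen, and the pattern was not tested.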
